A study of Mus musculus with 24 samples.

Results

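Genes of the cornified epidermis were followed in the mammary gland as a reading of skin or squamous epithelium in the tissue. The 9 genes were chosen by name, with earlier results of these data known, partly because Sprr2a2 fell at 8 weeks on 1 of its probes. They are the suprabasal keratins Krt1 and Krt10, the envelope precursors Lor, Ivl, Flg, Sprr1a, Sprr1b and Sprr2a2, and the secreted protein Krtdap. Every probe whose gene name in the array files equals one of these was taken, which gave 13 of the 55681 probes. The tissue came from female mice exposed whole body to 10 cGy of X-rays (low-dose ionizing radiation, LDIR) or sham-treated at 8-9 weeks of age. BALB/c, a common inbred strain, was collected after 2, 4 and 8 weeks, and SPRET/EiJ, inbred from the wild species Mus spretus, after 4 weeks. Each of these 8 groups of LDIR or sham mice held 3 arrays, 24 in all. The study's methods call the arrays of a group biological replicates, and p-values measure the spread between them. The probes carry coordinates of the mm9 genome, and SPRET/EiJ sequence under them was not analysed here.

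In stratified epithelium, basal keratinocytes divide and then move upward while they change their proteins. Suprabasal cells make the keratin pair Krt1 and Krt10, and granular cells make loricrin (Lor), involucrin (Ivl), the small proline-rich proteins (Sprr) and profilaggrin (Flg). Transglutaminases crosslink these under the membrane into the cornified envelope. The mammary gland is lined by luminal cells with the simple-epithelial keratins Krt8, Krt18 and Krt19 over basal cells with Krt5 and Krt14, and its duct opens to the skin at the nipple.

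The Sprr2a2 and Krt10 probes carry the findings below, so the last 30 bases of each are shown as the array files give them, 5′ to 3′, with any AATAAA polyadenylation signal in capitals. Sprr2a2 has a near-identical neighbour, Sprr2a1, which the annotation of its probes also names, so these values cannot be assigned to 1 of the pair. The Krt10 probes lie 1287 bases apart on the minus strand of chromosome 11, at chr11:99247846-99247905 (called the 5′ probe) and with a partial match at chr11:99246538-99246558 (the 3′ probe). The variable Sprr2a2 probe lies at chr3:92058417-92058476, and the bright one starts at base 92060587 of chromosome 3. Whether they lie in an exon or an untranslated region was not analysed here.
Sprr2a2, variable probe: acccctttggtgatggtctAATAAAtactt
Sprr2a2, bright probe: catggcctAATAAAcaaaaacgaaaaaagg
Krt10, 5′ probe: cctaccgcagcctgctagaaggagagggaa
Krt10, 3′ probe: gaaaccaaagaaacacttctattaagctgc

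Several genes that define cornified epithelium were not measurable in this tissue. Sprr1b, an envelope precursor, was well above background on 0 of 24 arrays, and so was the third Sprr2a2 probe. Krt1, the partner of Krt10, was well above background on 1 array, and Flg, the source of filaggrin, on 1 array. Involucrin was above background on 2 arrays by its first probe and on 1 by its second. Its second probe gave a level of -4.23 on sham array A at 8 weeks and at most -6.59 on the other 23 arrays. Here and below a level is a log2 intensity relative to the 75th percentile of the same array. Lor, Sprr1a, both Krt10 probes and the bright Sprr2a2 probe, 5 of the 13 probes, were above background on all 24 arrays. Of all probes of the array, 52.8% were above background on every array and 7243 on none.

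**Figure D1:**
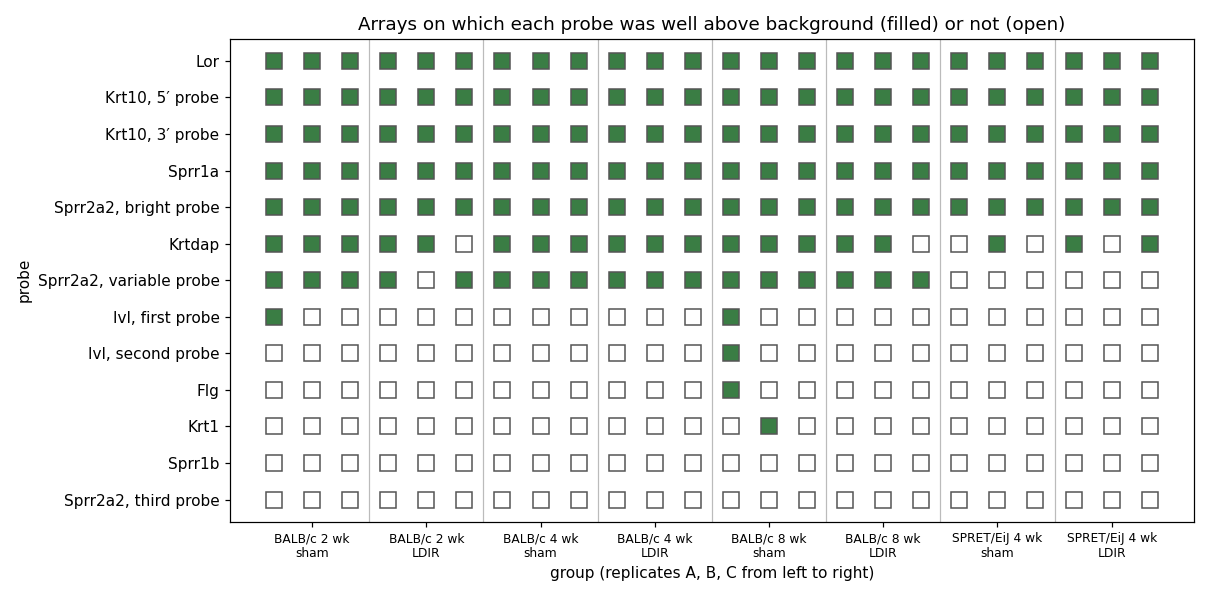
Each square is 1 array (columns, 3 per group) for 1 of the 13 probes (rows), filled where the scanner software called the probe well above background. Sprr1b and the third Sprr2a2 probe are open on all 24 arrays, and the variable Sprr2a2 probe is open on all 6 SPRET/EiJ arrays.

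Other genes of the cornified layer were also detected in part. Of 73 genes in 4 lists (other envelope and granular layer proteins, other small proline-rich proteins, envelope enzymes, desmosome and junction proteins of differentiated epidermis), 23 were above background on all arrays and 20 on none. None of the 12 other small proline-rich genes reached background on all arrays, and 8 reached it on no array. The desmosomal genes Dsc1, Dsg1a and Dsg1b, which hold suprabasal keratinocytes together, were above background on 0 of 24 arrays. By contrast, all 10 basal genes shared by epidermis and mammary basal cells, all 10 luminal genes, all 5 myoepithelial contractile genes and all 8 white adipocyte genes were above background on every array. Skin appendage genes were mixed: 8 of 23 hair follicle genes, 3 of 6 sebaceous genes and 5 of 7 melanocyte genes were above background on every array. Among non-cornified squamous keratins the count was 4 of 8, among skeletal muscle genes 3 of 10, among milk protein genes 2 of 6 and among lymphocyte genes 4 of 8. The label of the 9 genes as a cornified set therefore rests on few measured members, and each is described by its own values. In bulk tissue fewer cells of a type and less RNA per cell cannot be told apart.

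Sprr1a, a small proline-rich envelope precursor, varied more between LDIR arrays than between sham arrays of BALB/c at 2 weeks (SD 1.54 against 0.38) and 4 weeks (2.34 against 0.09), but not at 8 weeks (0.51 against 1.38). These spreads were not tested. At 4 weeks the sham arrays read -2.61, -2.43 and -2.50, and the LDIR arrays 0.42, -2.94 and 1.56. LDIR arrays A and C stood above every sham array, and LDIR array B stood below them. The groups therefore overlapped, and the fitted difference of 2.19 ± 1.07 (SE, n = 3 per group) did not pass (limma adjusted p = 0.775 over all probes). At 2 weeks the sham arrays read -2.87, -2.30 and -3.02 and the LDIR arrays -0.49, -3.56 and -1.76. Again A and C were above all sham arrays and B below them, with a difference of 0.80 ± 0.74 (limma adjusted p = 0.872). It became 1.61, past the unadjusted thresholds, without LDIR array B, and fell as low as 0.08 with another array left out. In SPRET/EiJ the 6 arrays lay between -3.89 and -3.38, and the difference was -0.13 ± 0.25 (limma adjusted p = 0.972).

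The variable Sprr2a2 probe had much the same arrays at its extremes at 4 weeks. Its sham arrays read -1.50, -3.51 and -2.86 and its LDIR arrays 0.88, -2.69 and 1.67. Arrays A and C after LDIR were above the sham range, while B lay within it. The difference of 2.58 ± 1.16 did not pass (limma adjusted p = 0.775). Without LDIR array B, 3 member probes passed at 4 weeks instead of 0, Sprr1a with a difference of 3.50 and the variable Sprr2a2 probe with 3.90. With another array left out, these differences fell as low as 1.25 and 1.72. At 2 weeks sham arrays read -2.55, -5.07 and -3.27 and LDIR arrays -1.76, -7.45 and -3.40, the lowest of them not well above background. The ranges overlapped widely, with a difference of -0.57 ± 1.48 (limma adjusted p = 0.938). It became 1.05 without LDIR array B and went as low as -1.80 with another array left out.

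**Figure D2:**
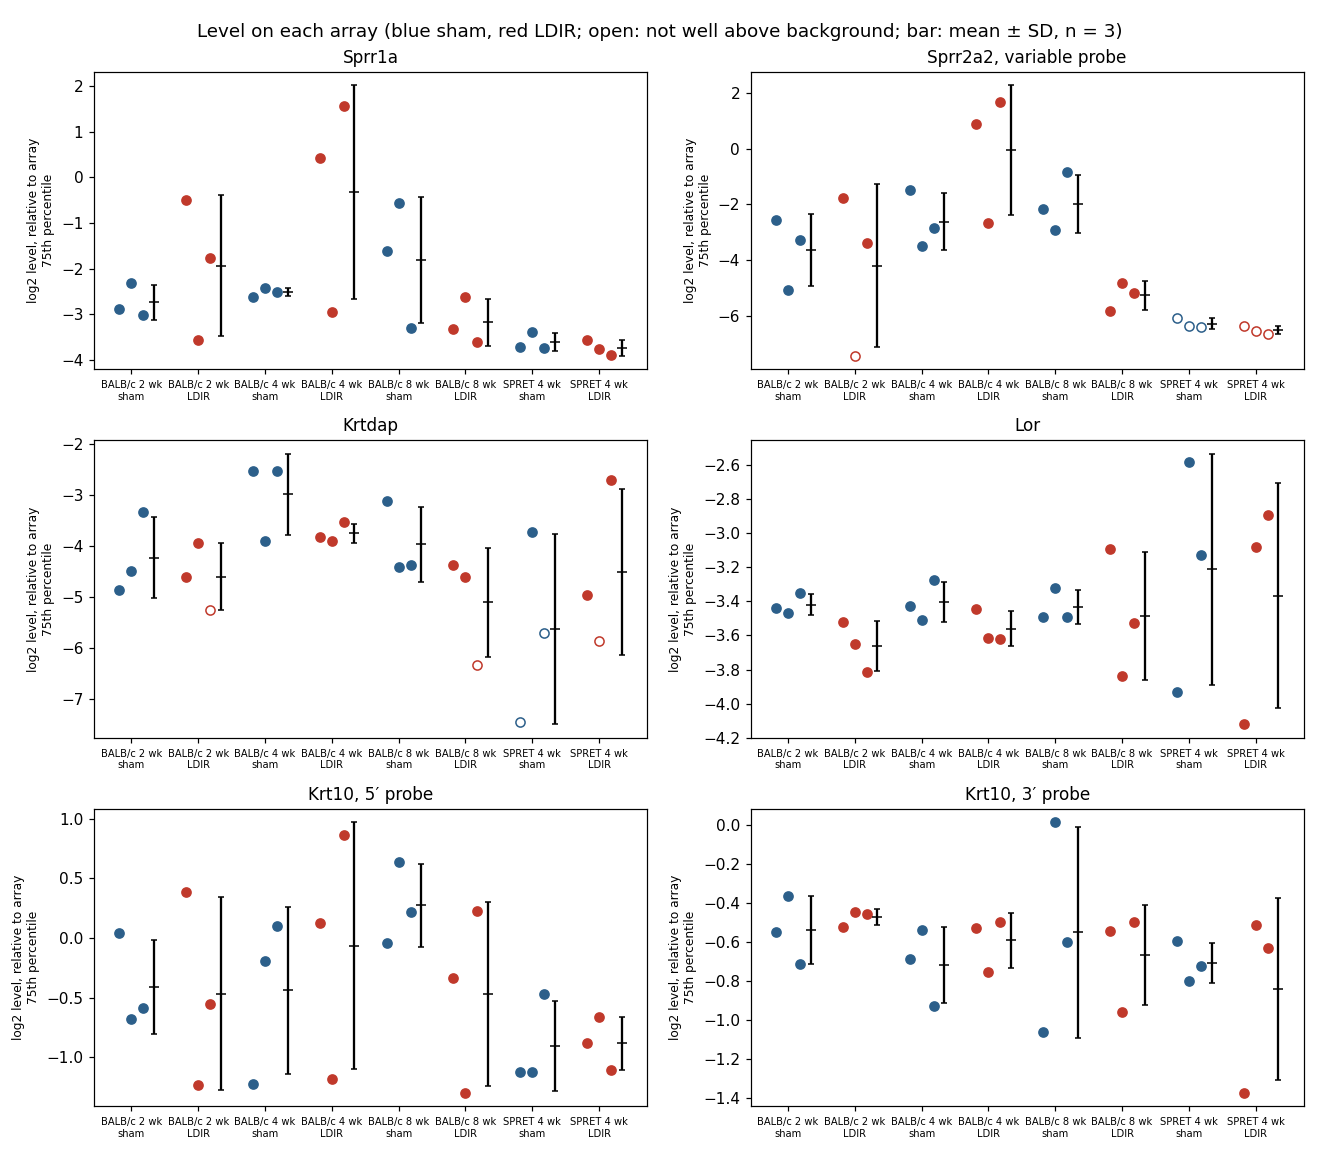
Log2 level (vertical axis, relative to the array's 75th percentile) of 6 probes on each array in the 8 groups. Open points were not well above background, and bars give the mean ± SD of 3 arrays. Sprr1a reads 0.42 and 1.56 on LDIR arrays A and C at 4 weeks against -2.94 on array B.

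At 8 weeks, the time that entered the choice of genes, the values are given as a description. The variable Sprr2a2 probe read -2.18, -2.93 and -0.84 in sham glands and -5.83, -4.82 and -5.18 after LDIR, all 6 above background. The groups did not overlap and differed by -3.29. This fall entered the choice of the gene, so neither value is support for a change. The bright probe differed by 0.03 and the third, above background on none of these arrays, by -0.51. Sprr1a read -1.61, -0.55 and -3.29 in sham glands and -3.31, -2.62 and -3.60 after LDIR, with overlap. At that time 1 of 13 member probes was past the thresholds of the study's methods (unadjusted p under 0.05 and more than 1.5-fold), where 1.92% of all probes were, and nothing is read from that count. The median of all probes moved by -0.14 in the same comparison.

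Outside that comparison, few member probes passed. At 2 weeks 1 of 13 did, where 3.07% of all probes did: Krt1, which was well above background on none of the 6 arrays, so no fold is given. At 4 weeks 0 of 13 passed in BALB/c, where 4.82% of all probes did, and 0 of 13 in SPRET/EiJ, where 2.21% did. No probe of the array reached an adjusted p under 0.05 in any LDIR comparison by limma, although 1707 probes at 2 weeks, 2686 at 4 weeks and 1233 in SPRET/EiJ passed the unadjusted thresholds. The change at 4 weeks differed from that at 2 weeks for 0 of 13 member probes, with 3.65% of all probes past the thresholds. In the comparison of LDIR changes at 4 weeks between strains 1 of 13 passed, where 3.59% of all probes did. It was the variable Sprr2a2 probe, which was above background on 0 of 6 SPRET/EiJ arrays, so its SPRET/EiJ change was not measured and no difference between strains is read from it (limma adjusted p = 0.955).

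Sprr1a and the variable Sprr2a2 probe differed between the BALB/c and SPRET/EiJ arrays. Between sham glands at 4 weeks Sprr1a was higher in BALB/c by 1.09 ± 0.17 on the log2 scale, from means of -2.51 ± 0.09 and -3.60 ± 0.19 (SD, n = 3), a 2.13-fold difference (limma adjusted p = 0.00802). The variable Sprr2a2 probe was above background on 3 of 3 BALB/c arrays and 0 of 3 SPRET/EiJ arrays. Its fitted difference was 3.67 ± 0.50 (limma adjusted p = 0.00449), on background signal in SPRET/EiJ. The BALB/c mean was at least 6.71-fold higher. This bound is that mean over, on each SPRET/EiJ array, the higher of its own signal and the lowest signal above background. Sprr1a and this probe were the 2 of 13 past the strain thresholds (unadjusted p under 0.001 and more than 1.5-fold), where 8.89% of all probes were. The same 2 of 13 had an adjusted p under 0.05, where 18.8% of all probes had. The SPRET/EiJ arrays lay on slide 3 and the BALB/c sham arrays on slides 1 and 2, so strain and slide cannot be told apart among these 6 arrays. With slide as a block over all 24 arrays neither passed: Sprr1a gave 1.31 (limma adjusted p = 0.862) and the Sprr2a2 probe 4.27 (limma adjusted p = 0.471). With normexp background correction the fitted log2 differences were 0.41 for Sprr1a, against 1.09, and 1.08 for the Sprr2a2 probe, against 3.67, so the bound above holds for the processed signals alone, and neither probe passed the strain thresholds. With any 1 of the 6 arrays left out, at most 1 member probe passed the strain thresholds. The luminal list also differed in level: its median over 10 genes, relative to all arrays, was -0.19, 0.83 and 0.49 on the BALB/c sham arrays and -0.34, -2.74 and -0.45 on the SPRET/EiJ ones, and its part in the strain difference was not tested.

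After LDIR that Sprr2a2 probe differed between strains by 6.48 ± 1.06 (limma adjusted p = 0.0125), with background signal on all 3 SPRET/EiJ arrays. By the same bound the BALB/c mean was at least 35.4-fold the SPRET/EiJ one. The BALB/c arrays ranged from -2.69 to 1.67, so the bound is for their mean and not for each array. The probe was the 1 of 13 past the thresholds, where 5.66% of all probes were. All 3 BALB/c LDIR arrays lay on slide 2 and all 3 SPRET/EiJ LDIR arrays on slide 3, so strain and slide cannot be told apart among these 6 arrays. With slide as a block over all 24 arrays the fitted log2 difference was 7.31 and the probe did not pass (limma adjusted p = 0.0815). With normexp it was 3.04 against 6.48 and did not pass the strain thresholds either, so this bound too holds for the processed signals alone. The count was 0 with any array other than BALB/c LDIR array B left out, and 2 without that array. By adjusted p the count was also 1 of 13, where 11.1% of all probes passed. Sprr1a differed by 3.42 ± 1.06 without overlap of the groups and did not pass (limma adjusted p = 0.0967). Krtdap, a peptide secreted by differentiating keratinocytes, was above background on 16 of 18 BALB/c and 3 of 6 SPRET/EiJ arrays. In sham glands it read -2.52, -3.90 and -2.53 in BALB/c and -7.46, -3.72 and -5.71 in SPRET/EiJ, with overlap. Only the middle one of those SPRET/EiJ values was well above background, so the fitted difference of 2.65 ± 0.94 (limma adjusted p = 0.108) rests in part on background signal and no fold is given. With normexp it was 0.64. Its LDIR difference at 4 weeks in BALB/c was -0.77 ± 0.40 (limma adjusted p = 0.775), from sham arrays that spanned the values above and LDIR arrays between -3.90 and -3.53. Without sham array B, the sham array nearest to them, it was -1.23 and passed the unadjusted thresholds. With another array left out it was as small as -0.535. In SPRET/EiJ, with 2 of 3 LDIR and 1 of 3 sham arrays above background, it was 1.12 (limma adjusted p = 0.972), at 2 weeks -0.37 ± 0.49 (limma adjusted p = 0.872) and between LDIR glands of the strains 0.76 ± 0.76 (limma adjusted p = 0.579).

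**Figure D3:**
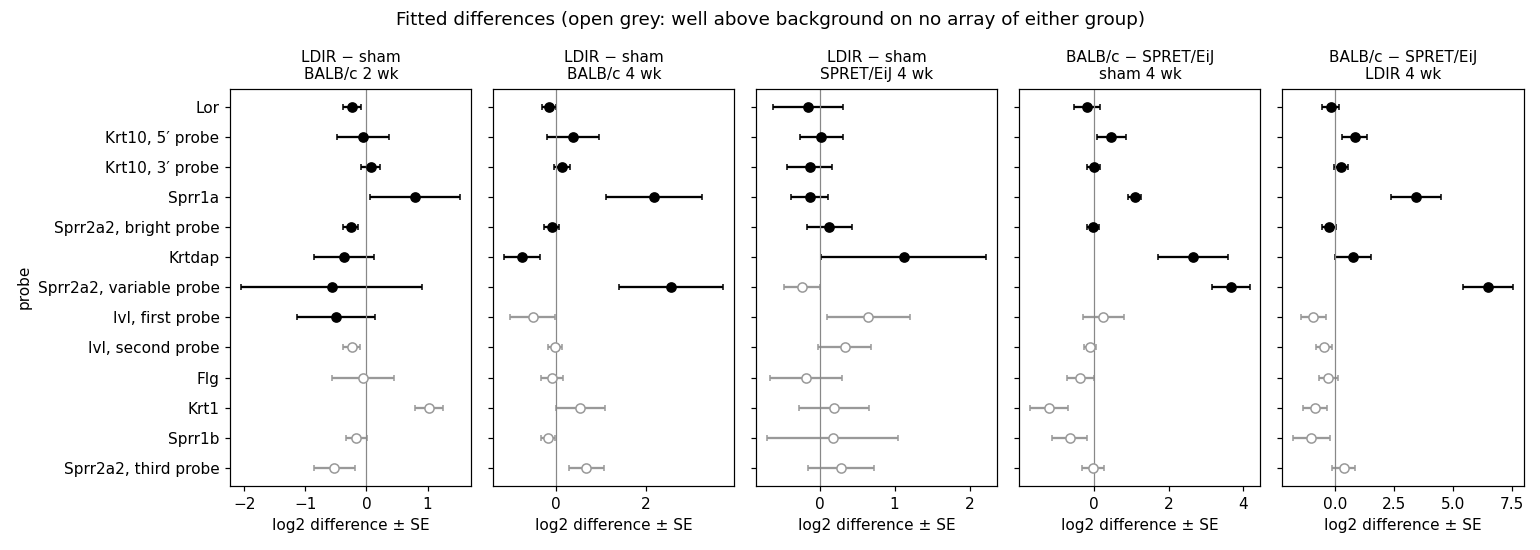
Fitted log2 differences ± SE (horizontal axes, a scale of its own in each panel) for the 13 probes in the 5 comparisons tested, with open grey points where no array of either group was above background. Between sham glands of the strains the variable Sprr2a2 probe (3.67), Krtdap (2.65, with only 1 of 3 SPRET/EiJ arrays above background) and Sprr1a (1.09) stand to the right, and Krtdap did not pass.

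Ordered by group means, Sprr1a ran from -0.32 ± 2.34 (SD) in BALB/c at 4 weeks after LDIR, through -1.81 ± 1.38 in 8-week sham, down to -3.74 ± 0.17 in SPRET/EiJ after LDIR. Every neighbour in that order overlapped the next. The variable Sprr2a2 probe ran from -0.05 ± 2.32 in the same top group to -5.28 ± 0.52 in BALB/c at 8 weeks after LDIR, with only the step from that group to SPRET/EiJ free of overlap. Krtdap was highest in 4-week BALB/c sham glands, at -2.98 ± 0.80, and lowest in SPRET/EiJ sham glands, at -5.63 ± 1.87, and all neighbours overlapped. Lor, the most abundant envelope protein of epidermis, held within -4.12 to -2.58 over the 24 arrays, and its 8 groups overlapped in sequence. The bright Sprr2a2 probe held within 7.30 to 8.29. Medians over the 24 arrays were 7.58 for it, -3.45 for the variable Sprr2a2 probe and -7.40 for the third. Which RNA binds the bright probe was not tested, so its levels are given as those of the probe, not of Sprr2a2. Over the 5 tested comparisons, Lor, the 3′ Krt10 probe and the bright Sprr2a2 probe differed by between -0.26 and 0.25, and none passed.

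The Krt10 probes did not follow each other. The 5′ probe ranged from -1.30 to 0.86 over the 18 BALB/c arrays, whereas the 3′ probe read between -1.06 and 0.01. Their levels correlated with r = 0.34 (Spearman rho = 0.30). The 5′ probe followed keratins of simple epithelium instead: r = 0.95 with Krt19 (rho = 0.95), 0.94 with Krt8 (rho = 0.93) and 0.84 with Krt18 (rho = 0.82) over the same arrays. These 3 were among the 10 genes most like it of 26377 candidates, a list that also held Krt42, Krt81, Krt24 and the tight-junction gene Cldn8. On deviations from the group means r was 0.97 with Krt19 and 0.96 with Krt8, and within slides 1 and 2, 8 arrays each, r with Krt19 was 0.96 and 0.94. Without the 2 arrays farthest from the median, r with Krt19 was 0.95. The 3′ probe had r = 0.39 with both Krt19 and Krt8 (rho = 0.36 and 0.29). Which RNA binds the 5′ probe was not tested, so its levels are given as those of the probe, not of Krt10. All such correlations are descriptions over arrays that share slides and scaling, and the references were chosen after their values were seen.

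**Figure D4:**
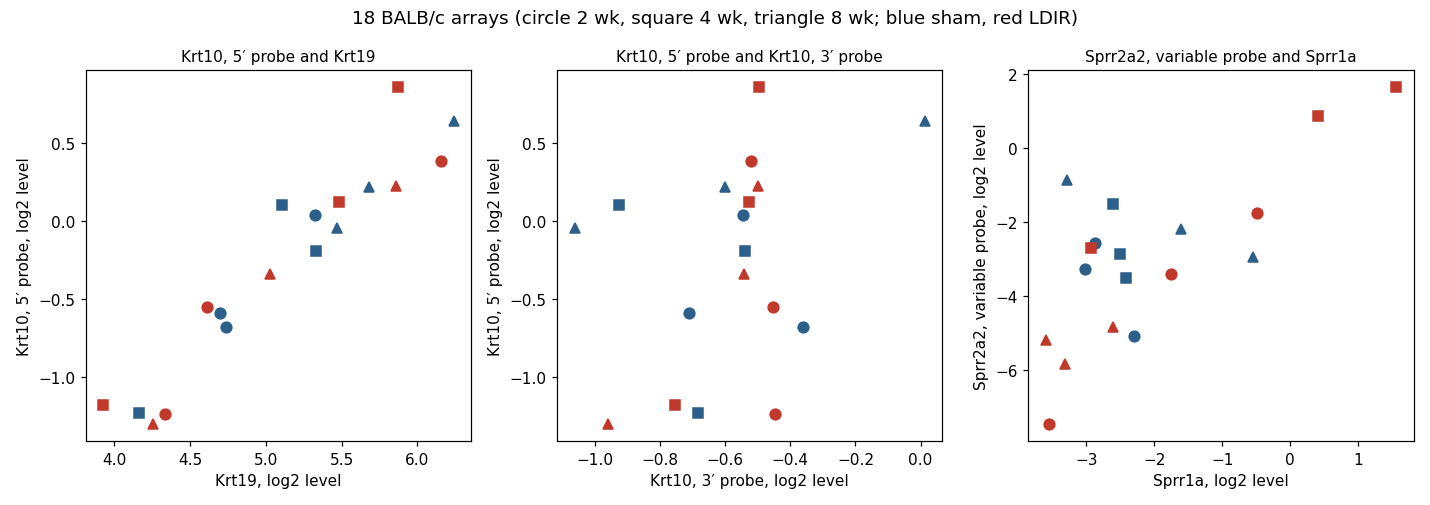
Log2 levels on 18 BALB/c arrays, 1 point each: the 5′ Krt10 probe against Krt19 (left) and against the 3′ Krt10 probe (middle), and the variable Sprr2a2 probe against Sprr1a (right). The left points follow a line (r = 0.95), the middle ones do not (r = 0.34), and on the right 2 LDIR arrays at 4 weeks lie apart at the top.

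The 5′ Krt10 probe changed in no tested comparison. LDIR differences were -0.06 ± 0.43 at 2 weeks (limma adjusted p = 0.983), 0.38 ± 0.59 at 4 weeks (limma adjusted p = 0.86) and 0.02 ± 0.29 in SPRET/EiJ (limma adjusted p = 0.994). Between strains they were 0.47 ± 0.39 in sham (limma adjusted p = 0.481) and 0.82 ± 0.51 in LDIR glands (limma adjusted p = 0.382).

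Sprr1a and the variable Sprr2a2 probe correlated with r = 0.73 over the 18 BALB/c arrays (rho = 0.57), and with r = 0.42 once the 2 arrays farthest from the Sprr1a median were left out, so the relation rested in large part on those 2. Over the 12 arrays at 2 and 4 weeks r was 0.81 (rho = 0.50) and, without the 2 farthest, 0.48. The gene most like Sprr1a over the 18 arrays was Sprr2f, another small proline-rich gene, with r = 0.82 (rho = 0.66, and 0.60 without the 2 farthest), but within slide 1 this was 0.19 and within slide 2 it was 0.98. The next genes with a symbol were Il31ra (0.79), Greb1 (0.75) and the interferon-stimulated gene Isg15 (0.74), with 1 lncRNA probe without a symbol ranked before Greb1. The luminal list moved partly with them. Its median over 10 genes, relative to all arrays, was 0.83, -0.34 and 0.73 on 4-week LDIR arrays A, B and C, and 0.88, -0.42 and 0.03 on those at 2 weeks. So the array low in Sprr1a was also low in luminal genes both times. The 4-week sham arrays, at -0.19, 0.83 and 0.49, had no such spread in Sprr1a. Over the 12 arrays at 2 and 4 weeks r between Sprr1a and the luminal median was 0.59 (rho = 0.52), and over all 18 it was 0.30 (rho = 0.16). Its part in the Sprr differences was not tested.

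The other 73 cornified-layer genes passed at shares near those of all probes. At 4 weeks in BALB/c 1 of 73 rose and 4 fell past the unadjusted thresholds, 6.85% against 4.82% of all probes, with a median change of -0.06 beside 0.01 for all probes, and none passed after adjustment. Those that fell were Cdsn (corneodesmosin, -1.33), Pkp1 (plakophilin, -1.22), Dsg1c (a desmoglein) and Dsc1, the last above background on none of the 6 arrays, and Lce3a, a late envelope protein, rose by 0.67. The basal keratins Krt14 (-0.93) and Krt5 (-0.73), which mammary basal cells also make, fell past the same thresholds. Some markers of other cells passed the unadjusted thresholds too, and none passed after adjustment. All 6 milk protein genes lay above 0 (median change 1.73, beside 0.01 for all probes). Csn1s1 (above background on 3 LDIR arrays and 1 sham array) and Csn2 (on 2 and 0) were past the thresholds. In SPRET/EiJ 0 of 6 milk protein genes lay above 0 (median -2.90). In BALB/c 7 of 8 white adipocyte genes lay below 0 (median -0.37), with Lipe (-0.62) and Pck1 (-0.73) past the thresholds. For each of these named genes the limma adjusted p was 0.775. Of the skeletal muscle genes 2 of 10 lay above 0 (median -0.93). The part of these other cells in the changes of the cornified-layer genes was not tested. The lowest adjusted p in limma among the 73 was 0.526, for Dsg1c. At 2 weeks only Acer1, a ceramidase, passed of the 73 (1.37% against 3.07% of all probes), above background on 3 LDIR arrays and 0 sham arrays, and in SPRET/EiJ 0 of 73 did. Between sham glands 11 of 73 were higher and 1 lower in BALB/c by adjusted p, 16.4% against 18.8% of all probes. Sbsn, a granular-layer protein, was higher by 4.69 (limma adjusted p = 0.000519), Tgm1, the transglutaminase that crosslinks the envelope, by 2.79 (limma adjusted p = 0.00334) and Cdsn by 2.19 (limma adjusted p = 0.00367). Sprr2f was above background on 3 of 3 BALB/c and 0 of 3 SPRET/EiJ arrays. Its fitted difference (limma adjusted p = 0.000252) therefore rests in part on background signal and no fold is given. Pkp3, another plakophilin, was lower in BALB/c, at -1.05 (limma adjusted p = 0.0409). Between LDIR glands 7 of 73 passed by adjusted p, 9.59% against 11.1% of all probes. Of these 6 were higher in BALB/c, Sbsn again by 4.23 (limma adjusted p = 0.00701), and Pkp1 was the 1 lower, at -1.79 (limma adjusted p = 0.0133). Strain and slide cannot be told apart in either strain comparison, and values with a slide block or normexp are not given for these genes.

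Over the 9 genes, each by its brightest probe, the median level relative to all arrays differed by -0.05 after LDIR at 2 weeks, -0.09 at 4 weeks and -0.03 in SPRET/EiJ, beside medians of all probes of -0.02, 0.01 and 0.03. Between strains it differed by -0.04 in sham and -0.10 in LDIR glands, beside -0.08 and -0.06, and at 8 weeks, as a description, by -0.52. The strain medians were higher with other choices of genes. With detected probes only they were 0.34 in sham and 0.67 in LDIR glands. Over the 5 measured genes, with Sprr2a2 by its variable probe, they were 1.31 and 1.44. Neither choice treats the strains alike, because a gene could enter by its BALB/c signal alone. In sham glands Krtdap was detected on 3 BALB/c arrays but only 1 from SPRET/EiJ, and the variable Sprr2a2 probe on 3 and 0. These higher medians therefore cannot tell a strain difference from the choice of genes. By the brightest probe Krt10 enters through its 5′ probe and Sprr2a2 through its bright one, and which RNA binds either was not tested. Each of the 9-gene medians includes Krt1, Flg, Ivl and Sprr1b, which were at background on nearly all arrays.

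The 250 bases before the start of 8 of the 9 genes were available (RefSeq, GRCm38.p6). For 3 genes they are shown because the probes under these names differed in spread. Sprr1a (SD 1.43 over 24 arrays) and the variable Sprr2a2 probe (2.47) varied more between arrays than Lor (0.33). The bright Sprr2a2 probe varied less (0.24), and the third (0.57) was above background on 0 of 24 arrays. The Sprr2a2 probes cannot be assigned to Sprr2a2 or Sprr2a1, so these are spreads of probes, not of the gene. The motif TGANTCA, a pattern that takes in the AP-1 consensus, was searched on both strands (it reads the same on each). It was present before 6 of the 8 genes and before 6.75% of 32851 promoters in the table. Sprr1a held it 2 times and Sprr2a2 and Krt10 not at all. TATAAA was present before 7 of the 8 (12.4% of all), and TTCNNNGAA before 0 (7.02% of all), and no matches of different motifs overlapped. A match is a description of these letters only. The last 150 bases before the start follow, at chr3:92485882-92486031 (minus strand), chr3:92083143-92083292 (minus strand) and chr3:92250497-92250646 (plus strand), with TGANTCA in capitals.
Sprr1a: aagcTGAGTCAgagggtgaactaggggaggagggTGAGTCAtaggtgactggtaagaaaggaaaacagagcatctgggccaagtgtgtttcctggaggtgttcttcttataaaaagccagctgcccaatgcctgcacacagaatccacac
Lor: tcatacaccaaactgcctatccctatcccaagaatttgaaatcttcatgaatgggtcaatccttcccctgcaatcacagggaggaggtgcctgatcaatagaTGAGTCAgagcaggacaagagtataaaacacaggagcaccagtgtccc
Sprr2a2: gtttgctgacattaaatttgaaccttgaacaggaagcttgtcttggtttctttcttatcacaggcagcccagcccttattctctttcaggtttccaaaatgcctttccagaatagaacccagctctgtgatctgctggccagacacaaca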

How the data were processed

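RNA of 24 mammary gland samples was hybridised in 1 colour to Agilent arrays, 8 on each of 3 slides. Per the file headers, Feature Extraction 10.10.1.1 gave the authors a background-subtracted intensity for each spot and the flags for signal well above background. The authors also deposited log2 values normalized to the 75th percentile, used as an alternative; after centring, 99.813% of them lay within 0.01 of the values used here. The other deposited columns used were flags and annotation. Intensities were put on the log2 scale, the spots of a probe averaged, outlier spots left out (3777 over 24 arrays, 0 saturated) and the 75th percentile over the 55681 probes subtracted. Between 58.2% (SPRET/EiJ LDIR array C) and 73.4% of spots were well above background. The number of arrays, 3 per group, limits the precision.

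Groups, taken from the labels, were compared in R 4.3.3 by limma 3.58.1, which used the 6 arrays concerned (12 where changes were compared), with Benjamini-Hochberg adjustment over all probes and the thresholds of the methods. The members, lists and tests were chosen with earlier results of these data known. All member probes were named, as were the genes most like a member by Pearson correlation and, from each list and comparison, up to 2 genes each way past the thresholds or below background. Of these list genes only those of the cornified layer and a few of other cells are printed, chosen after their values were seen, as were Dsc1 and genes past the adjusted p alone. The fits were tested on simulated data. Figures were drawn with matplotlib 3.10.9. Alternatives were the authors' log2 values, normexp (offset 50) or quantile normalization, probes restricted to those detected, outlier spots retained, the methods' t-test, 1 fit of 24 arrays, slide or replicate blocks and each array left out. A median over the 5 genes above background on most BALB/c arrays and the likeness to single probes were chosen after seeing the data.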

Additional observations from a re-analysis of the deposited data

Results flagged for a closer look

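The variable Sprr2a2 probe is given here because it passed the unadjusted thresholds in the test that compares LDIR changes at 4 weeks between the strains, on background signal in SPRET/EiJ. The fitted change in BALB/c exceeded that in SPRET/EiJ by 2.81 ± 1.27 on the log2 scale (limma adjusted p = 0.955 over all probes, 12 arrays), where 3.59% of all probes passed. The probe was not well above background on any of the 6 SPRET/EiJ arrays, so the SPRET/EiJ change is not measured. In BALB/c, 2 of 3 LDIR arrays stood above every sham array. The value lay between 1.95 and 4.13 with each array left out, passing the unadjusted thresholds only without BALB/c sham array A or LDIR array B, and with all 24 arrays in 1 fit its adjusted p in limma was 0.989, no longer past the unadjusted thresholds.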

How the results depend on the processing

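Counts of member probes past the thresholds are small and moved easily; the cause was not tested. At 2 weeks the count of 1 became 0 with normexp background correction, with detected probes only, in 1 fit of 24 arrays and under a slide block. At 4 weeks in BALB/c the count of 0 became 2 with normexp and in 1 fit of 24 arrays, and 1 with quantile normalization, detected probes only, slide as a block over 6 arrays and the replicate block. Between sham glands the count of 2 became 0 with normexp, in 1 fit of 24 arrays and with the slide block, and 1 with quantile normalization, the methods' t-test and the replicate block. Between LDIR glands the count of 1 became 0 with normexp, quantile normalization, the methods' t-test and the slide block, and 2 in 1 fit of 24 arrays. The interaction count of 1 became 0 in 1 fit of 24 arrays and with the slide block, and the count for 4 against 2 weeks went from 0 to 1 with quantile normalization and 2 with the replicate block. In SPRET/EiJ the count stayed at 0 under these settings. With each array left out the counts spanned 1 to 2 (2 weeks), 0 to 3 (4 weeks), 0 to 1 (SPRET/EiJ), 0 to 1 (sham, strains), 0 to 2 (LDIR, strains), 0 to 2 (interaction) and 0 to 3 (4 against 2 weeks).

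The median difference of the 9 genes became -0.20 at 2 weeks, 0.31 at 4 weeks, 0.34 between sham and 0.67 between LDIR glands with detected probes only. Over the 5 genes above background on most BALB/c arrays it was 0.30 at 4 weeks, -1.09 at 8 weeks, 1.31 between sham and 1.44 between LDIR glands. The strain values rest in part on background signal in SPRET/EiJ, and with both choices genes could enter by their BALB/c signal alone. With each array left out the median difference of the 9 genes spanned -0.14 to 0.01 at 2 weeks, -0.19 to 0.06 at 4 weeks, -0.69 to -0.23 at 8 weeks, -0.33 to 0.22 in SPRET/EiJ, -0.27 to 0.21 between sham and -0.30 to 0.20 between LDIR glands. The 8-week Sprr2a2 difference of -3.29 was -1.55 with normexp and -3.77 to -2.72 with each array left out. This difference entered the choice of the gene, so its range is a description and no support. Reversed values were Sprr2a2 at 2 weeks with normexp (0.10), Krtdap between LDIR glands with the slide block (-0.34), and the 5′ Krt10 probe at 4 weeks with slide as a block (-0.17) and in SPRET/EiJ with quantile normalization (-0.014). With an array left out, Sprr2a2 at 2 weeks spanned -1.80 to 1.05, Krtdap at 2 weeks -0.705 to 0.077, and the 5′ Krt10 probe -0.48 to 0.33 at 2 weeks, -0.087 to 0.935 at 4 weeks and -0.086 to 0.24 in SPRET/EiJ.

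Replicate letters are shared between groups. Arrays of the same letter deviated together only at 2 weeks, over probes detected on all arrays (correlations 0.17, 0.48 and 0.17), so the paired fit counts there; its count was 1, as without the replicate block.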

Other observations

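By the median of the 9 genes over all 24 arrays, the most similar other gene was 4933430H15Rik (r = 0.77, and 0.81 on deviations from group means), followed among those with a symbol by 3010033K07Rik (0.70), Gm9937 (0.68), Gm2240 (0.68) and 2210417A02Rik (0.67). The remaining 5 of the 10 were lncRNA probes without a gene symbol. None was a gene of the cornified layer.

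Genes of the skin appendages and of squamous epithelium differed between strains one by one. In sham glands Krt17, a stress keratin also made by hair follicles, was higher in BALB/c by 3.11 on the log2 scale (limma adjusted p = 0.000936), whereas the sebaceous genes Scd3 (-2.59, limma adjusted p = 0.00286) and Krt79 (-1.92, limma adjusted p = 0.000892) were lower. By adjusted p, 1 of 8 stress and non-cornified squamous keratins and 3 of 6 sebaceous genes passed, where 18.8% of all probes did. All 3 sebaceous genes that passed were lower, while 2 of the 6 lay above 0. Among hair follicle genes 2 of 23 passed, both lower, and among melanocyte genes 2 of 7, with 1 higher and 1 lower. Between LDIR glands Elovl3, a fatty acid elongase of sebaceous and brown fat cells, was lower in BALB/c, at -4.96 (limma adjusted p = 0.0155). It was above background on only 2 of 3 BALB/c arrays, so that value rests in part on background signal. It was the 1 of 6 sebaceous genes that passed by adjusted p, where 11.1% of all probes did, and 3 of the 6 lay above 0. Strain and slide cannot be told apart in either comparison.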
